A study of Mus musculus with 10 samples.

Results

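MHC class I genes and the genes that load peptide onto their products were examined in liver biopsies of western diet-fed mice. The members were the 10 rows of the deposited gene table with the symbols H2-K1, H2-D1, H2-L, H2-Q7, H2-Q9, H2-T23, B2m, Tap1, Tap2 and Tapbp, of 10913 genes listed. The genes were selected by name with earlier results of these data in view, among them the lower H2-Q9 in responders than in non-responders, so differences between those groups are given as description without a test. All 10 members had reads in every biopsy and all 10 passed the filter on low counts.

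The biopsies came from 10 wild-type C57BL/6 mice, 1 biopsy each, after 12 weeks of western diet and before any drug. The mice were later given obeticholic acid (OCA, an agonist of the bile acid receptor FXR) or vehicle, and OCA mice were classed as responders or non-responders from the NAFLD activity score of the liver at the end of treatment. The groups were thus 3 later responders, 4 later non-responders and 3 mice of the later vehicle group, all on the same diet and all untreated when the biopsy was taken. The responder and non-responder biopsies together are called the later OCA biopsies below. The study asked which features of the untreated liver go with the later response, and a difference between later OCA and later vehicle biopsies cannot be an effect of OCA. The ages of the mice were not given in the sources used here.

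Classical MHC class I molecules, encoded in C57BL/6 mice by H2-K1 and H2-D1, display peptides from the cytosol to CD8 T cells. The heavy chain pairs with beta-2-microglobulin, the product of B2m. Peptides enter the endoplasmic reticulum through the TAP transporter, a dimer of the Tap1 and Tap2 products, and tapasin, the product of Tapbp, holds the empty class I molecule at TAP until it is loaded. H2-T23 encodes Qa-1, which presents signal peptides of other class I chains to receptors of NK cells, and H2-Q7 and H2-Q9 encode Qa-2 antigens. Hepatocytes, sinusoidal endothelial cells and Kupffer cells all carry class I molecules. In bulk biopsies, fewer cells of a type and less RNA per cell cannot be told apart.

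Several of these rows stand for sequences that are nearly the same. In the GENCODE M21 annotation (GRCm38, the mm10 build that the study aligned to), B2m lies on chromosome 2 (chr2:122147686-122153083, plus strand). The other members that were placed lie in the MHC on chromosome 17: Tapbp at chr17:33915899-33929292, H2-K1 at chr17:33996017-34000347 on the minus strand, Tap1 at chr17:34187553-34197225, Tap2 at chr17:34203527-34216321, H2-D1 at chr17:35262730-35267499, H2-Q7 at chr17:35439155-35443773 and H2-T23 at chr17:36029773-36032855 on the minus strand. The RefSeq accession of the H2-Q9 row was paired by GENCODE with a transcript named H2-Q7-202, which lies inside the H2-Q7 gene, whereas the RefSeq table lists H2-Q9 as a gene of its own. The accession of the H2-L row matched no entry of either annotation. Mice of the H2-b haplotype, such as C57BL/6, are known to lack an L-locus gene, so the H2-L row is called by its symbol without a claim on its source.

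The sequence at the join of exons 4 and 5 is shown because the GENCODE transcripts H2-Q7-201 and H2-Q7-202 first part there. H2-Q7-201 was paired with the H2-Q7 row and H2-Q7-202 with the H2-Q9 row. The H2-Q7 row was also paired with other transcripts of that gene, which were not compared. Neither this join nor the share of windows below is thus shown to tell the rows apart. Exons 1 to 3 have the same coordinates in H2-Q7-201 and H2-Q7-202. Exon 4 ends at position 35442551 in H2-Q7-201 and at 35442542 in H2-Q7-202. Exon 5 starts at 35442678 in both. Lower case marks the 30 coding bases on either side that both share (chr17:35442513-35442542 and chr17:35442678-35442707, plus strand). Capitals mark the 9 bases present in H2-Q7-201 and not in H2-Q7-202.
H2-Q7 row, H2-Q7-201: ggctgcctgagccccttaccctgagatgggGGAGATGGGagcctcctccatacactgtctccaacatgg
H2-Q9 row, H2-Q7-202: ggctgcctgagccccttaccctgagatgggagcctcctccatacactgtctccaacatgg
Of the 100-base windows of H2-Q7-202, 86.8% were also found letter for letter in H2-Q7-201. Windows shared with any other class I gene made up 21.9% of H2-Q7-201, 16.4% of H2-Q7-202, 4.44% of H2-D1-202, 3.71% of H2-T23-201 and none of the 1520 windows of H2-K1-201. The sources used here did not say how reads that match several rows were counted. Values of H2-Q7, H2-Q9 and H2-L are therefore uncertain as values of single genes, and sums are given beside them.

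RefSeq promoters matched 7 of the 10 members, read from 250 to 11 bases before the RefSeq start (GRCm38.p6, 240 bases each). Those of H2-K1, H2-Q7 and B2m are shown, the matched members with a window that held no base of a GENCODE exon. Capitals mark matches on either strand to GGGATTCC (a core of the kappa B element), GAAANNGAA (a core of the interferon-stimulated response element), TGACG (a core of the cyclic AMP response element) and CCAAT (the box bound by NF-Y, read as ATTGG on the other strand). No matches overlapped.
H2-K1, chr17:34000358-34000597, minus strand: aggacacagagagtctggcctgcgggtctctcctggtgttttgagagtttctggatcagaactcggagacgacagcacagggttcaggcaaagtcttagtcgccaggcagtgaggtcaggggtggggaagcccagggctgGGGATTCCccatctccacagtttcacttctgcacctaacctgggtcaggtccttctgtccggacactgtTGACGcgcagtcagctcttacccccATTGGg
H2-Q7, chr17:35438905-35439144, plus strand: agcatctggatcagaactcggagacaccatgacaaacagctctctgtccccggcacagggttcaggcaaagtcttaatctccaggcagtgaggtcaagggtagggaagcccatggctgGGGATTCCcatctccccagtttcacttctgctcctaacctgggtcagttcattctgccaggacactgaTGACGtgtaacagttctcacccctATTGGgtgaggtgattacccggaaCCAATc
B2m, chr2:122147437-122147676, plus strand: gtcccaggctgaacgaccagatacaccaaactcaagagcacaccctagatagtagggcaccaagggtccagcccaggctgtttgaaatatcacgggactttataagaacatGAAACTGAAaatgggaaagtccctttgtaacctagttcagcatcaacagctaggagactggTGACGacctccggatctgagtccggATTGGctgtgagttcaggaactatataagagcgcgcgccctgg
The kappa B core stood in the windows of H2-K1, H2-D1 and H2-Q7, and in 0.846% of all 32851 promoters of the same length. It was not found in those of H2-T23, B2m, Tap1 or Tapbp. The exact letters GAAANNGAA stood in the windows of B2m and H2-T23, and in 6.82% of all promoters. Other forms of the interferon element were not searched, so a window without a match is not shown to lack one. The H2-D1 window lay wholly in GENCODE exons, as did 144 of the 240 bases of the H2-T23 window. TGACG was found in 16.9% and CCAAT in 33.0% of all promoters. A match is a description of the letters only.

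Libraries held 40432530 to 76529328 counts. Rn45s, the 45S ribosomal RNA precursor, took 16.3% to 25.7% of the counts in responders, 11.0% to 23.5% in non-responders and 3.70% to 6.87% in vehicle biopsies, so its share separated later OCA from vehicle biopsies. Levels are given below as CPM, each count divided by its library total after TMM scaling and set to a common size. All 8 hepatocyte markers were listed, and Alb was at 955 to 1893 CPM in later OCA and 884 to 1054 CPM in vehicle biopsies. Ass1 was low, at 0.11 to 7.26 CPM in later OCA and 0.21 to 1.18 CPM in vehicle biopsies. Of 8 leukocyte markers 4 were listed, none was called and all 4 had a log2 fold change below 0 for later OCA against vehicle (median -0.51). Ptprc (CD45) overlapped, at 10.2 to 25.0 CPM in later OCA and 15.1 to 27.5 CPM in vehicle biopsies, and Lyz2 did not, at 1.23 to 3.11 CPM in later OCA and 3.51 to 5.10 CPM in vehicle biopsies (edgeR adjusted p = 0.164). The sum of the 4 was 18.4 to 31.0 CPM in responders, 22.8 to 38.9 CPM in non-responders and 30.4 to 45.0 CPM in vehicle biopsies, and its part in the results below was not tested. None of 13 T and NK cell markers and none of 5 B cell markers were in the table, which holds only genes with at least 1 read in every biopsy.

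Levels of the members differed widely. On the FPKM scale, which corrects for transcript length, the mean over 10 biopsies was 2717 for H2-K1, 1498 for H2-D1 and 653.5 for H2-T23, which placed H2-K1 12th, H2-D1 23rd and H2-T23 64th of the 10913 genes. H2-L averaged 138 FPKM, H2-Q7 106 FPKM and H2-Q9 85.1 FPKM. Their ranges over the biopsies overlapped, so the order of these 3 rows does not hold beyond their spread. The partners of the heavy chains were far lower, at 14.1 FPKM for B2m, 2.53 for Tap2, 2.48 for Tapbp and 1.94 for Tap1. The ranges of Tap2, Tapbp and Tap1 overlapped. By these means B2m was listed at a level 193-fold below that of H2-K1, a chain it pairs with. In single biopsies the ratio ran from 89.0 in non-responder 1 to 488 in vehicle 1. The listed levels were not checked against another measure, so the ratio need not be that of the RNA in the liver. Among class I rows outside the members, H2-Q10, which encodes a secreted class I chain made by the liver, was higher still with a mean of 5491 FPKM.

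H2-K1 was measured at 5881, 5426 and 5549 CPM in responders, at 3319, 3279, 4379 and 6674 CPM in non-responders, and at 4599, 3921 and 4444 CPM in vehicle biopsies. Responders lay close together and non-responders spread widely, with non-responder 4 above all other biopsies. The log2 fold change was 0.19 ± 0.22 (standard error) for later OCA against vehicle (edgeR adjusted p = 0.678). For responders against non-responders it was 0.35 ± 0.24 and the ranges overlapped. That value was 0.62 ± 0.14 without non-responder 4, 0.23 without non-responder 1, 0.22 without non-responder 2 and 0.022 with the Rn45s share as a term of the model. H2-K1 was 47.6% to 59.1% of the summed counts of the 6 H2 members in each biopsy.

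H2-D1 was measured at 3060, 3520 and 2868 CPM in responders, at 2492, 1973, 3101 and 2882 CPM in non-responders, and at 2991, 2266 and 2300 CPM in vehicle biopsies. The 3 groups overlapped. Later OCA biopsies differed from vehicle by a log2 fold change of 0.18 ± 0.18 (edgeR adjusted p = 0.632), and responders from non-responders by one of 0.27 ± 0.18. H2-T23 was measured at 1084, 934 and 748 CPM in responders, at 713, 703, 854 and 1103 CPM in non-responders, and at 992, 947 and 926 CPM in vehicle biopsies. Its groups overlapped as well. Its log2 fold change was -0.12 ± 0.17 for later OCA against vehicle (edgeR adjusted p = 0.741) and 0.13 ± 0.20 for responders against non-responders.

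**Figure D1:**
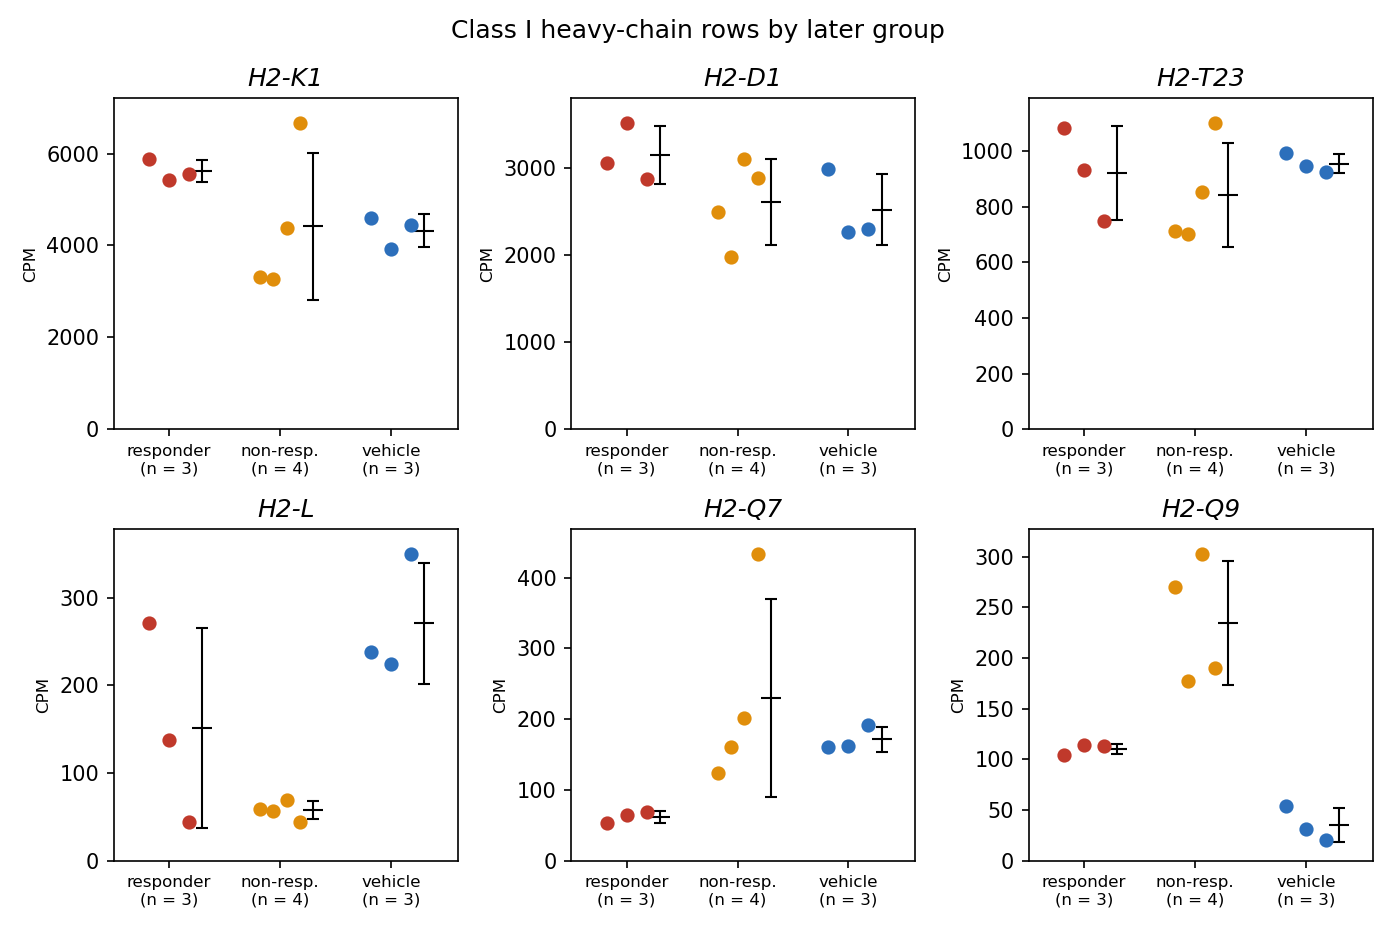
CPM (linear axes from 0) of the 6 H2 members in each biopsy, with 3 responders, 4 non-responders and 3 vehicle biopsies from left to right, points in the order of their replicate numbers, and the mean and SD of each group as a black bar. H2-K1, H2-D1 and H2-T23 overlap between groups, H2-Q9 lies between 104 and 303 CPM in the later OCA biopsies and between 20.5 and 53.5 CPM in vehicle biopsies, and H2-Q7 lies between 52.8 and 68.8 CPM in responders, below every other biopsy.

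H2-Q9 was the member that differed most between later OCA and vehicle biopsies. It was measured at 104, 114 and 113 CPM in responders, at 270.0, 177, 303 and 190 CPM in non-responders, and at 53.5, 30.9 and 20.5 CPM in vehicle biopsies. All 7 later OCA biopsies were above all 3 vehicle biopsies, and all 3 responders were below all 4 non-responders. The level was 5.19-fold higher in later OCA biopsies, a log2 fold change of 2.38 ± 0.42 (edgeR adjusted p = 0.0328). H2-Q9 was the only member called at an adjusted p under 0.05, when 1.19% of the 10844 genes tested were called (92 higher and 37 lower). The choice of H2-Q9 was made with its low value in responders known, and those biopsies are part of this comparison. The call was lost without non-responder 3 (adjusted p = 0.0532), responder 3 (0.0517), vehicle 2 (0.130) or vehicle 3 (0.150). It was also lost in a model that held each biopsy's Rn45s share on the log2 scale as a further term, where the log2 fold change was 2.87 ± 0.72 (adjusted p = 0.633) and 0 genes were called.

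H2-Q7 took another order. It was measured at 52.8, 64.0 and 68.8 CPM in responders, at 123, 161, 202 and 434 CPM in non-responders, and at 161, 162 and 192 CPM in vehicle biopsies. All responders were below all biopsies of the other groups, and non-responders overlapped vehicle biopsies. Between later OCA and vehicle biopsies the log2 fold change of H2-Q7 was -0.12 ± 0.53 (edgeR adjusted p = 0.926). For responders against non-responders the log2 fold change was -1.89 ± 0.39 in H2-Q7 and -1.09 ± 0.21 in H2-Q9. These were the 2 of 10 members with no overlap between responders and non-responders in that direction, a pattern shown by 6.64% of 10826 genes. H2-Q9 was chosen with its lower value in responders known, and H2-Q7 has nearly the same sequence. The count therefore cannot be weighed against that share. With the same 3 vehicle biopsies in both, the log2 fold change of H2-Q7 was -1.48 in responders and 0.43 in non-responders against vehicle, and that of H2-Q9 was 1.64 in responders and 2.75 in non-responders against vehicle.

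The rows of H2-Q7 and H2-Q9 were then added, since their sequences are nearly the same. The sum was 157, 178 and 181 CPM in responders, 393, 338, 504 and 623 CPM in non-responders, and 214, 193 and 212 CPM in vehicle biopsies. The sum in responders lay just under that of vehicle biopsies, and non-responders stood above both. In one fit with the 2 rows as 1, the log2 fold change was 0.72 ± 0.40 for later OCA against vehicle, in place of 2.38 for H2-Q9 alone, and -1.43 ± 0.22 for responders against non-responders. The share of H2-Q9 in the pair was 66.3%, 64.0% and 62.1% in responders, 68.6%, 52.4%, 60.0% and 30.4% in non-responders, and 25.0%, 16.0% and 9.68% in vehicle biopsies. Every later OCA biopsy thus had a larger share of H2-Q9 than any vehicle biopsy, with non-responder 4 the nearest. With H2-Q6 and H2-Q8 added as well, the sum was 695 to 760.0 CPM in responders, 632 to 1161 CPM in non-responders and 562 to 652 CPM in vehicle biopsies, and responders and non-responders overlapped. Whether the difference lies in transcription or in how reads were divided between rows was not tested.

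**Figure D2:**
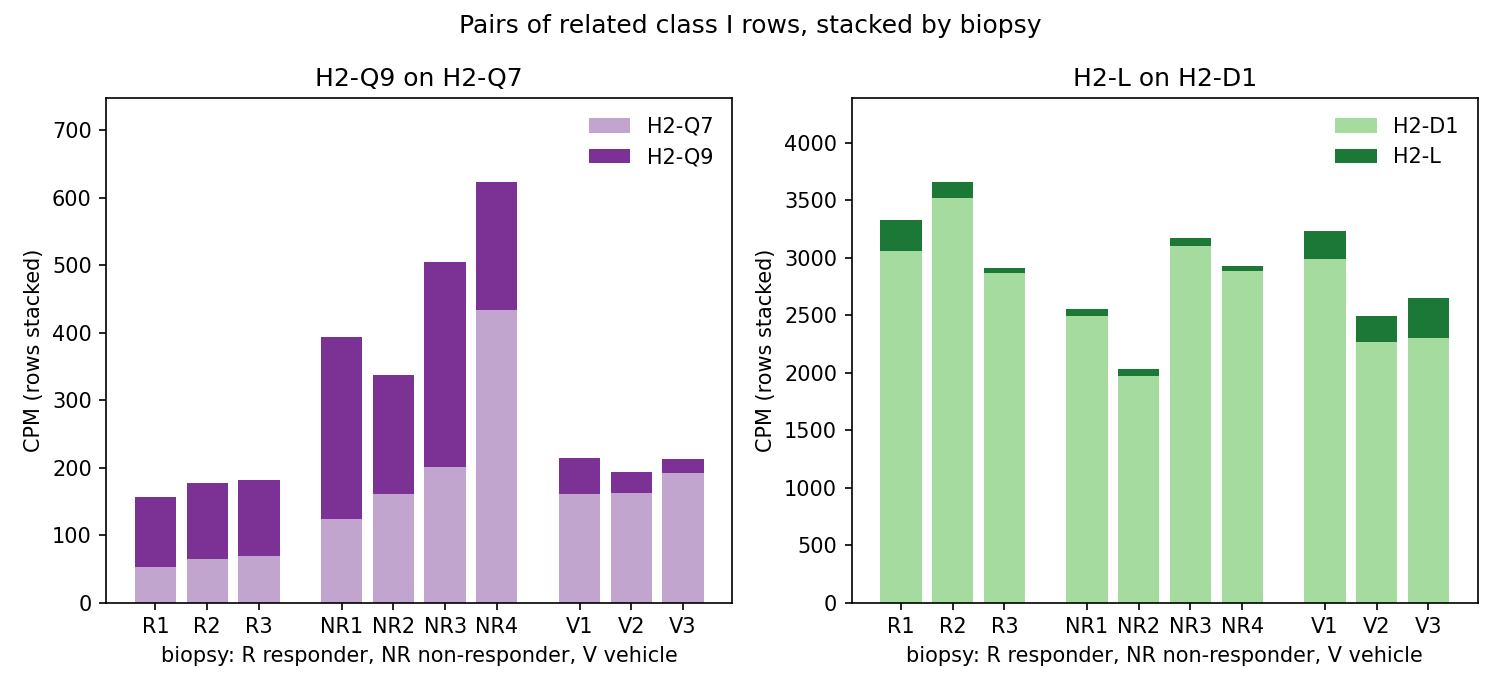
CPM of H2-Q9 stacked on H2-Q7 (left) and of H2-L stacked on H2-D1 (right) in each biopsy, with linear axes from 0 (R, later responder; NR, later non-responder; V, later vehicle). The H2-Q7 and H2-Q9 sum is 338 to 623 CPM in non-responders, against 157 to 181 CPM in responders and 193 to 214 CPM in vehicle biopsies, while H2-L is a thin layer, at most 13.2% of its pair.

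H2-L was measured at 272, 138 and 44.1 CPM in responders, at 59.3, 56.9, 69.4 and 43.9 CPM in non-responders, and at 238, 224 and 350.3 CPM in vehicle biopsies. Responders covered nearly the whole range, and the 4 non-responders were all below the 3 vehicle biopsies. The log2 fold change was -1.47 ± 0.49 for later OCA against vehicle and did not pass the threshold (edgeR adjusted p = 0.132). Without responder 1 it was -1.96 and passed (adjusted p = 0.0340). Against non-responders, responders were higher by 1.39 ± 0.46 on the log2 scale, with overlap, and by 0.67 ± 0.38 without responder 1. D and L chains are known to be close relatives in strains that have both. H2-L made up at most 13.2% of the H2-D1 and H2-L counts, and with both added to 1 row the log2 fold change was 0.078 ± 0.18 for later OCA against vehicle and 0.31 ± 0.18 for responders against non-responders.

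The 6 H2 members together gave 10453, 10195 and 9390 CPM in responders, 6977, 6350.0, 8907 and 11327 CPM in non-responders, and 9034, 7552 and 8232 CPM in vehicle biopsies. Responders were above all vehicle biopsies in CPM, and non-responders ranged from the lowest to the highest of the 10. As a sum of FPKM, responders (4509 to 5557) and vehicle biopsies (5141 to 6082) overlapped. The log2 difference of the means was 0.11 for later OCA minus vehicle and 0.29 for responders minus non-responders, with overlap in both. H2-K1 led this sum, and H2-K1 with H2-D1 (r = 0.71) and with H2-T23 (r = 0.70) varied together over the 10 biopsies, whereas H2-Q7 (r = -0.094) and H2-Q9 (r = 0.042) did not follow the sum. The 10 genes outside the class I list most like the sum by Pearson correlation of log2 CPM were Mapk8ip3, Ric1, Tbc1d22a, Myo7a, Zfr, Sh3rf1, Exoc4, Dhx35, Asb6 and Nsmaf (r = 0.91 to 0.95 over 10 biopsies). These are descriptions, since all values of a biopsy share 1 library and its scaling.

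The partners of the heavy chains had another pattern. B2m was measured at 14.1, 12.6 and 14.0 CPM in responders, at 19.4, 18.6, 12.5 and 12.0 CPM in non-responders, and at 4.92, 8.25 and 11.3 CPM in vehicle biopsies. All later OCA biopsies were above all vehicle biopsies, by a narrow margin. The log2 fold change was 0.85 ± 0.27 and did not pass the threshold (edgeR adjusted p = 0.120). On the deposited FPKM scale the groups of B2m overlapped.

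Tap2 was measured at 6.97, 6.99 and 8.30 CPM in responders, at 6.47, 7.02, 6.86 and 9.21 CPM in non-responders, and at 4.97, 5.02 and 5.13 CPM in vehicle biopsies. Tapbp was measured at 9.53, 7.99 and 7.09 CPM in responders, at 8.30, 7.54, 7.00 and 11.4 CPM in non-responders, and at 5.04, 4.41 and 4.43 CPM in vehicle biopsies. For both genes every later OCA biopsy was above every vehicle biopsy, and responders and non-responders overlapped. The log2 fold change for later OCA against vehicle was 0.56 ± 0.21 for Tap2 (edgeR adjusted p = 0.176) and 0.86 ± 0.23 for Tapbp (adjusted p = 0.0773). Neither passed the threshold. Over the 10 biopsies Tap2 and Tapbp varied together (r = 0.87), as a description.

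Tap1 did not share this pattern. It was measured at 6.09, 3.35 and 5.84 CPM in responders, at 5.74, 5.03, 4.84 and 6.29 CPM in non-responders, and at 9.12, 7.30 and 5.35 CPM in vehicle biopsies. The groups overlapped and the log2 fold change was -0.45 ± 0.25 for later OCA against vehicle (edgeR adjusted p = 0.354). Exons of Tap1 overlap those of Psmb9, an immunoproteasome subunit on the opposite strand, over 212 bases. Psmb9 was at 2.03 to 3.89 CPM in later OCA and at 4.66 to 5.88 CPM in vehicle biopsies, a log2 fold change of -0.96 ± 0.26 (adjusted p = 0.0822). Exons of Tapbp overlap 149 bases of Zbtb22 on the same strand and 904 bases of Gm19412 on the opposite strand. Exons of Tap2 overlap 533 bases of Gm15821 and 165 bases of Gm20496, both on the opposite strand. How reads in such stretches were assigned was not given in the sources used here.

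**Figure D3:**
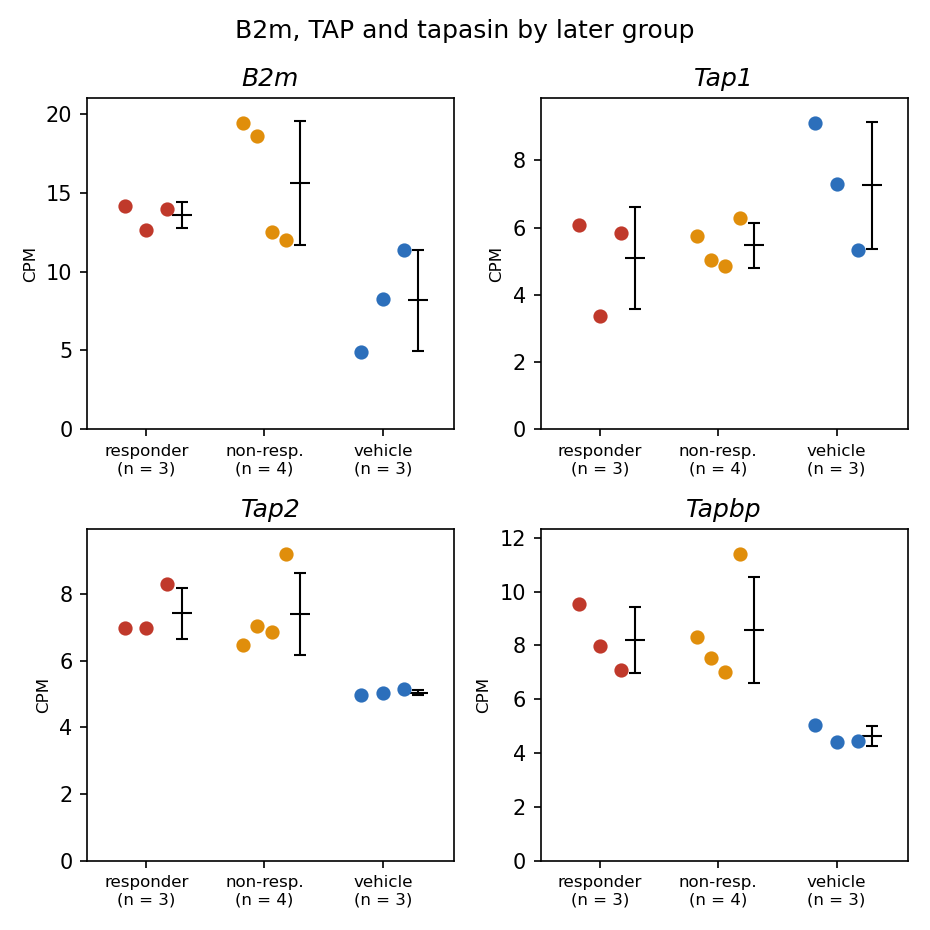
CPM (linear axes from 0) of B2m, Tap1, Tap2 and Tapbp in each biopsy, with 3 responders, 4 non-responders and 3 vehicle biopsies from left to right and the mean and SD of each group as a black bar. Tap2 and Tapbp are at 6.47 CPM or more and 7.00 CPM or more in the later OCA biopsies, against at most 5.13 and 5.04 CPM in vehicle biopsies, and Tap1 overlaps.

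Across the 10 members, 4 (H2-Q9, B2m, Tap2 and Tapbp) had every later OCA biopsy above every vehicle biopsy in CPM, when 5.51% of all genes did, and none had every later OCA biopsy below, when 4.77% did. The log2 fold change was above 0 for 6 members with a median of 0.18, against a median of 0.0026 over all genes. The Rn45s share separated the same groups. In the model that held it as a further term, the log2 fold change was 2.87 ± 0.72 for H2-Q9, 1.71 ± 0.45 for B2m, 0.23 ± 0.40 for Tap2 and 0.49 ± 0.43 for Tapbp, against 2.38, 0.85, 0.56 and 0.86 without it. None was called there, and of these 4 H2-Q9 alone was called without that term. Within the later OCA biopsies B2m was highest in non-responders 1 and 2, which had the lowest Rn45s shares of that group (13.1% and 11.0%). Non-responder 3, with the next lowest share (14.2%), had B2m at 12.5 CPM, and responder 3, with the highest share (25.7%), at 14.0 CPM. These are single biopsies, given as description. Because the share separated later OCA from vehicle biopsies, it and the group cannot be told apart, and the cause was not tested. Between responders and non-responders edgeR called 0% of the 10826 genes at an adjusted p under 0.05, with 1502 genes under an unadjusted p of 0.05, limma called 0 on either deposited scale and DESeq2 called 273. The log2 fold changes of B2m (-0.20), Tap1 (-0.10), Tap2 (0.0094) and Tapbp (-0.060) between these groups were smaller than their standard errors of 0.24 to 0.29.

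**Figure D4:**
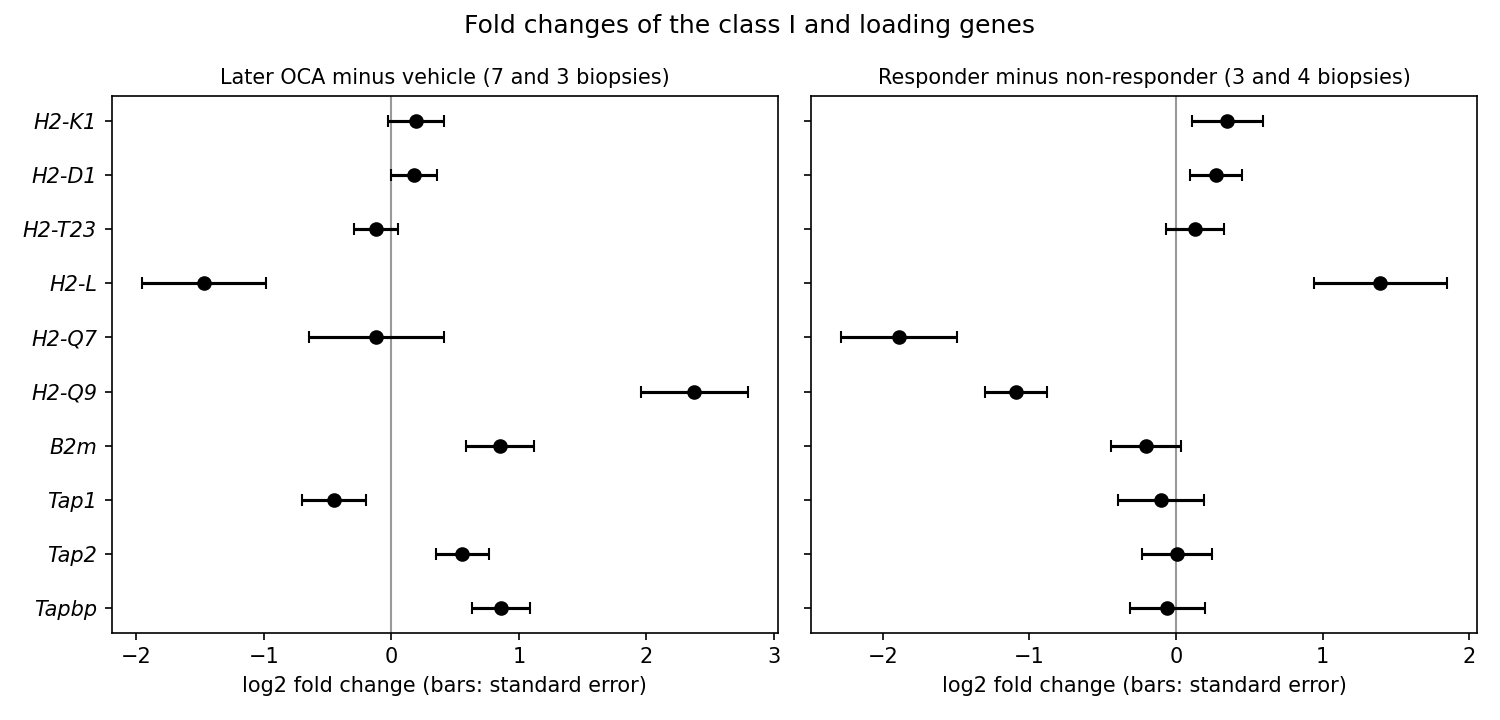
Log2 fold changes with standard errors of the 10 members, for later OCA minus vehicle (left, 7 and 3 biopsies) and for responders minus non-responders (right, 3 and 4 biopsies, a description without a test). H2-Q9 stands furthest to the right in the left panel at 2.38, and H2-Q7 furthest to the left in the right panel at -1.89.

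Other genes of the pathway were read from lists of textbook genes, and the heavy chain and peptide loading lists also hold the members. An unadjusted p under 0.05 for later OCA against vehicle was given by edgeR to 2080 of the 10844 genes tested (19.2%), and counts at that p below stand against this share. Of 25 class I heavy chain genes 19 were listed and fitted, and H2-Q9 alone was called, with a median log2 fold change of 0.10 for later OCA against vehicle. The 9 peptide loading genes include B2m, Tap1, Tap2 and Tapbp. None of the 9 was called by edgeR, and their median was 0.52. An unadjusted p under 0.05 was given to 6 of them, including the members B2m, Tap2 and Tapbp. Outside the members, Canx, a chaperone of newly made heavy chains, had a log2 fold change of 0.52 ± 0.14 (edgeR adjusted p = 0.0773). Calr, a chaperone of the loading complex, had one of 0.73 ± 0.25 (adjusted p = 0.144). None of the 5 immunoproteasome and PA28 genes and none of the 3 constitutive catalytic proteasome subunits was called.

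Of 12 genes for transcription of class I genes 1 was called, Nlrc5, the transactivator of MHC class I genes. Nlrc5 was measured at 6.69, 4.15 and 4.11 CPM in responders, at 2.86, 3.26, 4.06 and 4.90 CPM in non-responders, and at 1.99, 1.37 and 1.30 CPM in vehicle biopsies. All later OCA biopsies were above all vehicle biopsies, with a log2 fold change of 1.46 ± 0.32 (edgeR adjusted p = 0.0480). With 1 biopsy left out, the call held in 2 of 10 fits, those without non-responder 1 or non-responder 2, and the adjusted p reached 0.216 without vehicle 3. Of 4 listed genes with a class I-like fold or a B2m partner, Azgp1 was called at 0.91 ± 0.17 (adjusted p = 0.0350), and the Azgp1 product is known to fold without beta-2-microglobulin. That call held in 4 of 10 such fits, those without responder 1, non-responder 1, non-responder 2 or non-responder 4, with an adjusted p of up to 0.150. Fcgrt, the heavy chain of the neonatal Fc receptor, which does pair with it, had 1.22 ± 0.31 (adjusted p = 0.0729).

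Interferons are known inducers of class I and loading genes. Of 10 listed genes for interferon receptors and signalling none was called by edgeR and 3 had an unadjusted p under 0.05, with a median log2 fold change of 0.25. Of 28 listed interferon-induced genes none was called and 14 had an unadjusted p under 0.05, with a median of 0.38. The log2 fold change was above 0 for 19 of the 28. Genes under that p went both ways, with Trim30a at 2.00 ± 0.51 and Lgals3bp at -0.58 ± 0.18. Trim30a lay near the floor, at 0.14 to 0.60 CPM in later OCA and 0.070 to 0.15 CPM in vehicle biopsies. Lgals3bp was at 8.76 to 13.1 CPM in later OCA and 15.6 to 16.2 CPM in vehicle biopsies. The summed level of those 28 genes was 102 to 128 CPM in responders, 103 to 122 CPM in non-responders and 110.1 to 133 CPM in vehicle biopsies. The sums overlapped, but a sum is led by the genes with the most counts and does not describe the 14.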

How the data were processed

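Total RNA of 10 liver biopsies was sequenced as paired ends. Per the submitters' processing notes, reads were checked with FastQC 0.11.7, trimmed with Trimmomatic 0.38 and aligned to mm10 with HISAT2 2.1.0. The labels name both a TruSeq stranded and a SMARTER kit. The deposited table gives read counts, FPKM that the authors made with StringTie, and the authors' quantile-normalized log2(FPKM + 1). Whether counting used strand, and how it split shared reads, was not stated in the methods or labels. The table also holds the authors' own comparisons (fold changes, p-values, group summaries), which were not used.

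Counts were filtered with filterByExpr (minimum count 10, minimum total 15), scaled by TMM and tested with the quasi-likelihood test of edgeR 4.0.16 in R 4.3.3 across all genes, with Benjamini-Hochberg adjustment at 0.05. The test was checked on simulated data. Fold changes of rows added to 1 and sums of CPM have no p. limma 3.58.1 and DESeq2 1.42.0 gave alternatives, also with pseudocounts of 1 and 0.1 for FPKM. Members and gene lists were chosen with earlier results of these data known. All 10 members were named, and for other lists up to 4 genes with the smallest p. The p-values measure the spread between these mice.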

Additional observations from a re-analysis of the deposited data

Results flagged for a closer look

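In 2 of 20 sets of biopsies examined for the members (7 later OCA biopsies, or 4 non-responders), 1 biopsy lay apart from the others by Dixon's test at the 95% level, which chance gives in about 1 of 20. H2-L was at 272 CPM in responder 1, far above the other later OCA biopsies. H2-Q7 was at 434 CPM in non-responder 4, far above the other later OCA biopsies.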

How the results depend on the processing

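Later OCA against vehicle gave 129 calls and 1 member (H2-Q9). Calls numbered 475 with the 3 groups in one fit (2 members, H2-L and H2-Q9), 665 with DESeq2 (3, H2-Q9, B2m and Tapbp), 262 with limma on the deposited log2 values (2, H2-Q9 and Tapbp), 11 with limma on log2(FPKM + 0.1) (0 members) and 0 with the Rn45s share as a covariate (0 members). Leaving out 1 biopsy gave 1 to 158 calls and 0 to 2 members, with 1 call without vehicle 2 or vehicle 3. With the replicate number as a replicate block 0 genes and 0 members were called, and H2-Q9 had a log2 fold change of 2.41 (adjusted p = 0.0938). With group means removed, the 9 same-numbered pairs correlated at -0.074 to 0.056, and pairs with different numbers at -0.15 to 0.14. The correlations thus gave no sign that the numbers pair the mice, but they cannot exclude shared housing or handling. Over all alternatives fitted across genes the adjusted p of H2-Q9 ran from 6.8e-08 (DESeq2) to 0.633.

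For responders against non-responders DESeq2 called 273 genes in place of 0, and leaving out 1 biopsy gave 0 to 1. The summed H2 members, 0.11 for later OCA minus vehicle, were at -0.16 as a sum of FPKM and at 0.048 to 0.19 with 1 biopsy left out, and the responder difference, 0.29, was 0.17 to 0.44 with 1 biopsy left out and 0.067 as a sum of FPKM.

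The direction turned in H2-K1, H2-D1 and H2-Q7 for later OCA against vehicle. H2-K1 was at -0.10 and H2-D1 at -0.081 with limma on log2(FPKM + 0.1), and at -0.73 and -0.27 with the Rn45s covariate. H2-Q7 ran from -0.60 to 0.051 with 1 biopsy left out and was above 0 only without a responder. With rows added, a choice made after seeing the data, H2-Q7 with H2-Q9 was at 0.72 and H2-L with H2-D1 at 0.078. That last row is mostly H2-D1 and says little of H2-L. H2-L alone stayed below 0, from -2.10 with the Rn45s covariate to -1.24 without vehicle 3. The cause of the turns was not tested. Standard errors for later OCA against vehicle were largest for H2-Q7 (0.53), H2-L (0.49) and H2-Q9 (0.42) among the members.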

Other observations

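MHC class II genes, which present peptides on macrophages, B cells and dendritic cells, were listed for 5 of 10 genes. H2-Ab1 was at 28.5 to 55.0 CPM in later OCA and at 57.1 to 74.8 CPM in vehicle biopsies, a log2 fold change of -0.78 ± 0.19 (edgeR adjusted p = 0.0654). H2-Eb1 had -0.85 ± 0.25 (adjusted p = 0.107), and none of the 5 was called. The class II sum was 95.8 to 136 CPM in responders, 95.4 to 192 CPM in non-responders and 174 to 233 CPM in vehicle biopsies. Among 7 listed Kupffer cell and macrophage markers none was called, and their sum overlapped between groups, at 86.3 to 136 CPM in responders, 112 to 134 CPM in non-responders and 101 to 146 CPM in vehicle biopsies.

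The ratio of H2-K1 to B2m on the FPKM scale was 217, 225 and 207 in responders, 89.0, 92.2, 183 and 291 in non-responders, and 488, 248 and 205 in vehicle biopsies.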
